A study of Drosophila melanogaster and Drosophila pseudoobscura and Drosophila virilis with 4 samples.

Results

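The Enhancer of split complex is a cluster of Notch target genes on the right arm of chromosome 3. FAIRE-Seq peaks were assigned to it by position alone, as those with a midpoint between 21815000 and 21880000 on 3R in FlyBase release 5 of *D. melanogaster*. This rule took 38 of the 19424 peaks in the deposited table. FAIRE-Seq isolates nucleosome-poor DNA from fixed chromatin, so that the reads in a region measure how open its chromatin is. The libraries came from eye-antennal imaginal discs of larvae taken while wandering, in the third instar. These discs are the epithelia that form the adult eye and antenna. There was 1 library each of *D. pseudoobscura* (wild type), *D. virilis* (wild type), and the *D. melanogaster* strains FRT82 (genotype P{neoFRT}82B) and Canton-S. The P{neoFRT}82B element is an insertion that carries a recombination target and lies on 3R, the arm of the complex itself. All flies were raised at 25 °C, and no group carried a treatment.

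Notch is a receptor that is cleaved after it binds Delta or Serrate on a neighbouring cell. Its intracellular part then joins the DNA-binding protein Su(H) and activates target genes, of which those of the Enhancer of split complex are the best known. In the eye disc this pathway restricts the proneural gene *ato*, so that single cells become the founding R8 photoreceptors. The complex also lends its name to the family of Hairy/Enhancer of split repressors found across animals.

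Of the 13 genes listed for the complex, all 13 were found by name in the RefSeq gene table of release 6, on 3R. Their order along the arm is *E(spl)mdelta-HLH*, *E(spl)mgamma-HLH*, *E(spl)mbeta-HLH*, *E(spl)malpha-BFM*, *E(spl)m1* (symbol *Kaz-m1*), *E(spl)m2-BFM*, *E(spl)m3-HLH*, *E(spl)m4-BFM*, *E(spl)m5-HLH*, *E(spl)m6-BFM*, *E(spl)m7-HLH*, *E(spl)m8-HLH* and *gro*. The 7 HLH genes encode basic helix-loop-helix repressors, which silence proneural genes. The 4 BFM genes encode small proteins of the Bearded family, which restrain the ubiquitin ligase Neuralized and with it Delta signalling. *Kaz-m1* encodes a protein with a Kazal-type protease inhibitor domain, and *gro* encodes Groucho, the corepressor that the helix-loop-helix proteins recruit. The table lists 6 further genes between the first and the last, and none of them codes for a protein. No gene annotation of release 5 was used here, so the peaks are named by their position and not by a gene. They are called P01 to P38 in order along the arm.

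Each species other than *D. melanogaster* had 1 library, and the spread between the 2 strains was the only replicate error. Nothing in the labels says that strains were sampled in more than 1 culture, and 2 strains also differ in genotype. The reads in all peaks summed to between 1386805 in FRT82 and 4733792 in *D. pseudoobscura*. A peak of the complex held 18 to 3003 reads in *D. pseudoobscura*, 8 to 1474 in *D. virilis*, 11 to 673 in FRT82 and 35 to 1439 in Canton-S. A single value, P23 in *D. virilis*, was under 10 reads. The disc was used whole, so fewer cells with an open region and a less open region in every cell cannot be told apart. In the other species, reads can also be lost when alignments are moved to *D. melanogaster* positions. Whether this lowered any peak was not tested. The disc identity of the libraries was not checked against marker genes, since release 5 gene positions were not used.

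The complex was among the most densely open stretches of the arm in this table. Its 38 peaks covered 24940 bp, 38.4% of the 65 kb window, against 6.53% for 3R as a whole. In the 65 kb window just before it there were 3 peaks with 682 covered bp, and in that just after it 22 peaks with 7986 bp. When 3R was tiled with 428 windows of this size, 1 held more peaks than the complex and 0 had more covered bases. The median window held 10 peaks. The tiling was aligned to the window of the complex, which is among the 428, so other dense stretches could be split between windows. The peaks of the complex were also long, with a median of 476.5 bp against 289 bp in the whole table. Of the 38, 12 (31.6%) reached 700 bp, against 8.69% of all peaks, and these 12 made up 61.1% of the covered bases. The longest was P14, from 21834963 to 21837617, at 2654 bp. Of the 37 gaps between neighbouring peaks, 6 were under 100 bp, and the smallest was 2 bp between P09 and P10.

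The peaks fell into runs separated by gaps of more than 3 kb. Run 1 held 16 peaks, P01 to P16, from 21821306 to 21839385. Run 2 held 9 peaks, P17 to P25, from 21842907 to 21851203. Run 3 held 10 peaks, P26 to P35, from 21857891 to 21870181. P36 stood alone from 21874237 to 21874482, and P37 and P38 closed the window between 21877624 and 21878732. The first 6306 bp of the window held no peak, and the widest gap inside it, 6688 bp, separated runs 2 and 3. At the edges of the rule, P01 with 41.2, 21.5, 36.1 and 36.9 RPKM in *D. pseudoobscura*, *D. virilis*, FRT82 and Canton-S was the first peak inside. The nearest peak before it, from 21808568 to 21808821, had 36.7, 47.5, 65.2 and 85.5 RPKM in the same order. P38 was the last inside, and the next peak, from 21880189 to 21880382, had 27.9, 13.2, 17.8 and 30.1 RPKM.

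**Figure D1:**
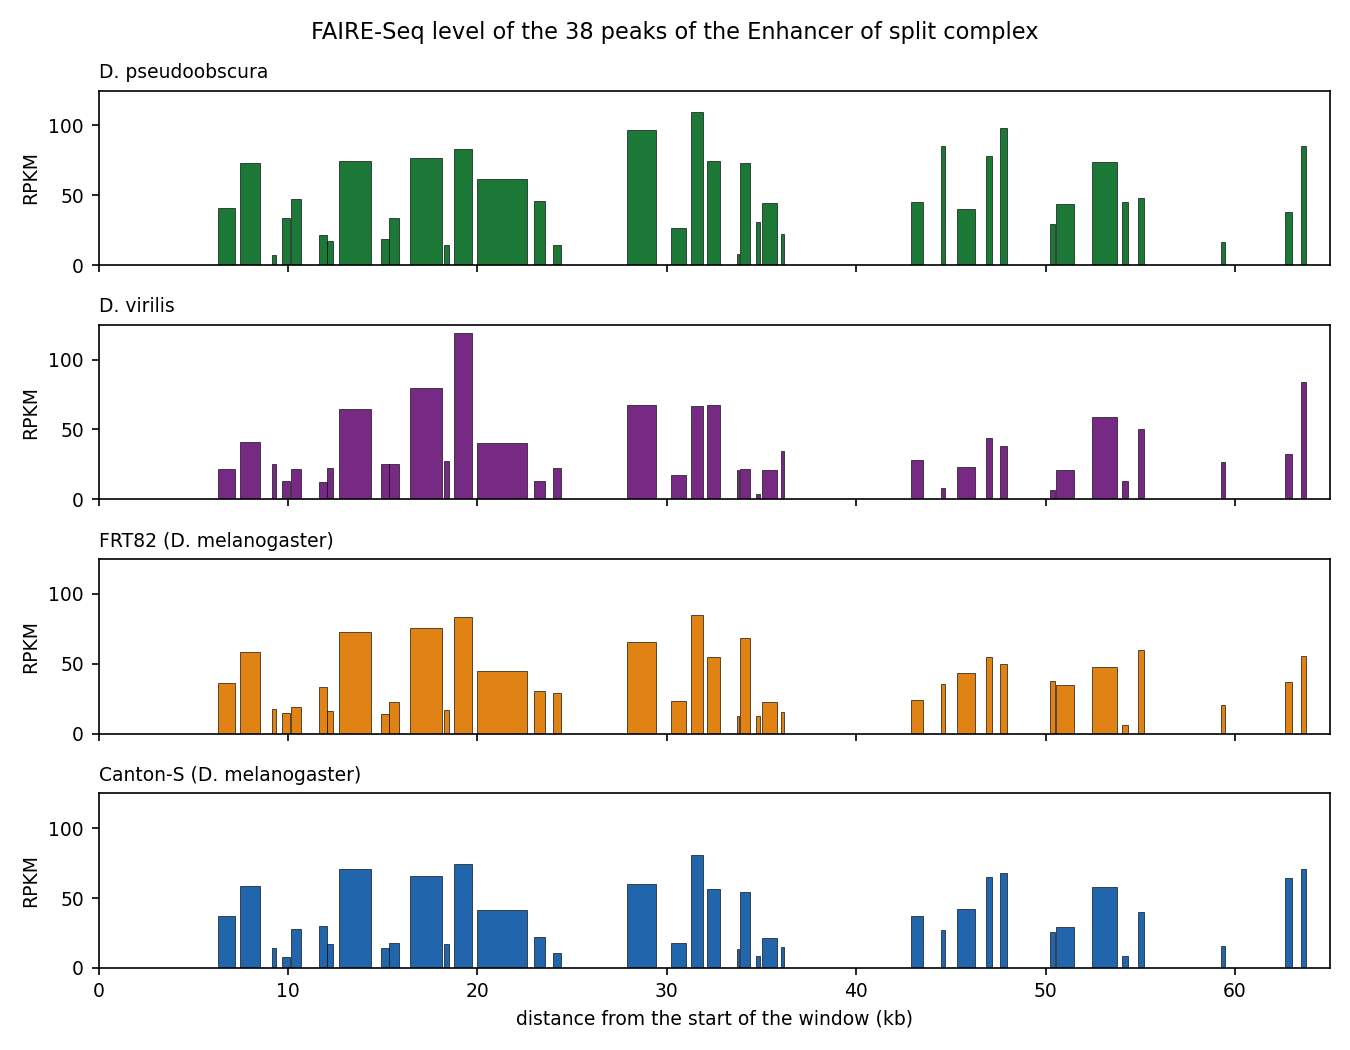
Deposited RPKM (y axis) of the 38 peaks against their distance in kb from the start of the window (x axis), with 1 panel per library and each bar as wide as its peak. The 3 large runs of peaks and the gaps between them share positions in all 4 panels because the peaks are the same, and the tall bars of run 1 reach 119 RPKM in *D. virilis* (P13).

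Levels were compared in RPKM, read counts scaled for the length of the peak and the size of the library, which the authors had also normalized between libraries. The median over the 38 peaks was 44.6 RPKM in *D. pseudoobscura*, 25.4 RPKM in *D. virilis*, 35.1 RPKM in FRT82 and 29.6 RPKM in Canton-S. Over all peaks the medians were 28.1, 26.8, 28.7 and 28.4 RPKM in the same libraries. Ranked among all peaks of its library, the median peak of the complex stood at the 77.8th percentile in *D. pseudoobscura*, the 47.4th in *D. virilis*, the 64.0th in FRT82 and the 52.5th in Canton-S. Peaks of the complex were thus high in *D. pseudoobscura*, and the median one was near the middle of all peaks in *D. virilis* and Canton-S.

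A core of peaks was high in every library. The top 10% of each library included 5 of the 38 peaks in all 4 cases (P08, P11, P13, P17 and P19), and 4 of these 5 were 700 bp or longer. Of all peaks, 2.75% were in the top 10% of all 4 libraries. Long peaks were often high throughout the table. Of all peaks of 700 bp or more, 58.6% were above the median in all 4 libraries, and in the complex 7 of 12 were. The share of all long peaks in the top 10% of all 4 libraries was not computed. The highest mean over the libraries belonged to P13, from 21833743 to 21834704, with 82.99 RPKM in *D. pseudoobscura*, 119 RPKM in *D. virilis*, 83.2 RPKM in FRT82 and 74.3 RPKM in Canton-S. *D. virilis* was the highest library there, and *D. pseudoobscura* lay within the range of the strains.

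P19, from 21846271 to 21846920, had 109.6 RPKM in *D. pseudoobscura*, 66.6 RPKM in *D. virilis*, 85.0 RPKM in FRT82 and 80.7 RPKM in Canton-S. The species fell on opposite sides of the strains at this peak. P11, from 21831435 to 21833139, had 76.6, 79.6, 75.6 and 65.6 RPKM in *D. pseudoobscura*, *D. virilis*, FRT82 and Canton-S. It was the most even of the 5 peaks with the highest mean RPKM over the libraries. P38, from 21878478 to 21878732, had 85.6 RPKM in *D. pseudoobscura* with 84.1 RPKM in *D. virilis*, both above the 55.4 and 70.4 RPKM of FRT82 and Canton-S. P17, from 21842907 to 21844412, had 96.4 RPKM in *D. pseudoobscura* with 67.7 RPKM in *D. virilis*, against 65.5 and 60.3 RPKM in FRT82 and Canton-S. At the 5 peaks with the highest mean (P13, P19, P11, P38 and P17) both strains had between 55.4 and 85.0 RPKM.

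The heights of the peaks were then compared between libraries. Across the 38 peaks, Pearson's r of log2 RPKM was 0.75 between *D. pseudoobscura* and Canton-S, 0.70 between *D. virilis* and Canton-S, 0.44 between *D. pseudoobscura* and *D. virilis*, and 0.91 between FRT82 and Canton-S. Over all 19424 peaks the same values were 0.45, 0.36, 0.24 and 0.81. Peaks are not independent replicates, and all of the pairs rest on single libraries, so these values are descriptions. They share the peak set and the peak lengths.

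As a first measure of the locus as a whole, the reads of its 38 peaks were taken as a share of the reads in all peaks. The share was 0.564% in *D. pseudoobscura* (95% Wilson interval 0.557% to 0.571%), 0.412% in *D. virilis* (0.405% to 0.419%), 0.445% in FRT82 (0.434% to 0.456%) and 0.421% in Canton-S (0.414% to 0.428%). These intervals cover counting error only. *D. pseudoobscura* was thus 1.30 times the geometric mean of the strains and *D. virilis* 0.95 times, whereas FRT82 was 1.06 times Canton-S. In the 22 peaks of the window after the complex the same ratios were 0.95, 0.91 and 1.00. In the 3 peaks of the window before it they were 0.63, 1.06 and 0.81, from 117 reads in FRT82. Within the complex, *D. pseudoobscura* was 1.22 times the strains in run 1, 1.47 times in run 2 and 1.38 times in run 3. *D. virilis* was 0.99, 0.95 and 0.83 times the strains in runs 1, 2 and 3. The higher share of *D. pseudoobscura* was seen in each of the 3 large runs. At P37 and P38 together it was 1.09 times the strains, and at P36 0.75 times. With 1 library of the species, this locus-wide difference has no replicate check.

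**Figure D2:**
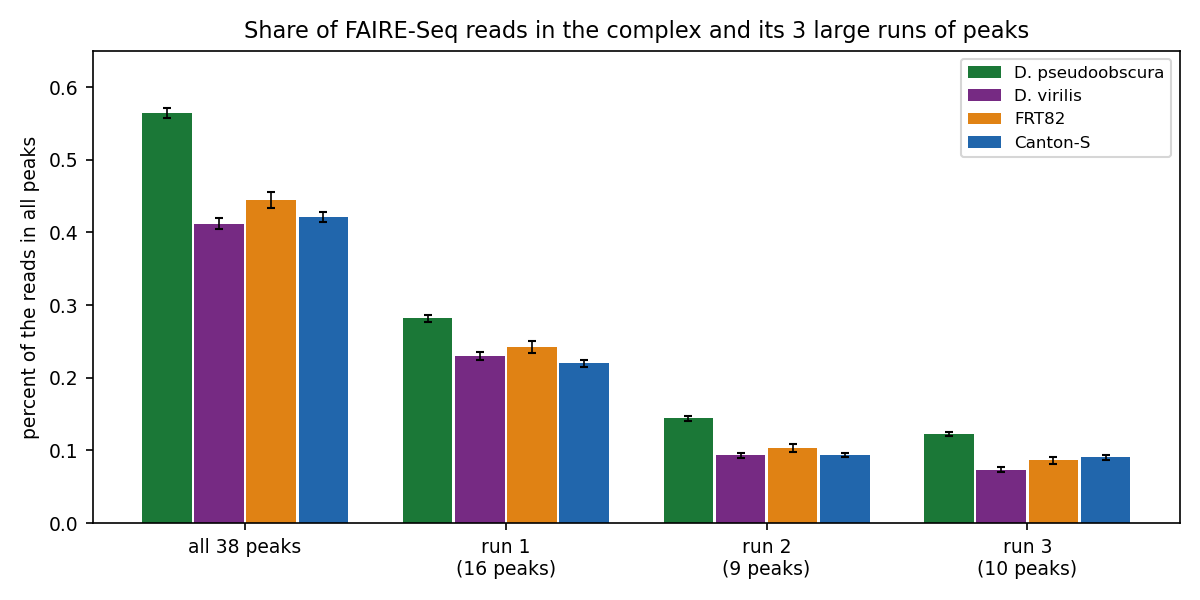
Percent of the reads in all peaks (y axis) that lay in the 38 peaks and in the 3 large runs of peaks (x axis), by library, with 95% Wilson intervals that cover counting error only. The *D. pseudoobscura* bar is the highest in every set, at 0.564% for all 38 peaks against 0.445% and 0.421% in FRT82 and Canton-S.

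To ask which peaks differed between the species, each was compared with both strains. *D. pseudoobscura* lay above both strains at 27 of the 38 peaks (39.4% of all peaks in the table) and below both at 5 (40.3% of all peaks). It was the highest of the 4 libraries at 23 of the 38, and at 28.4% of all peaks. *D. virilis* lay above both strains at 15 (40.3% of all peaks) and below both at 18 (41.6% of all peaks). The median log2 ratio of *D. pseudoobscura* to the mean log2 level of the strains was 0.39 over the complex and -0.01 over all peaks. For *D. virilis* it was -0.06 over the complex and -0.02 over all peaks. Both comparisons share the *D. melanogaster* libraries. Large differences were fewer than in the table as a whole. At 2-fold or more from both strains there were 4 peaks in *D. pseudoobscura* (background 20.9% of all peaks), all higher, and 6 in *D. virilis* (background 24.9%), 1 higher and 5 lower. The backgrounds by direction were 11.2% higher and 9.73% lower in *D. pseudoobscura*, and 12.4% higher and 12.6% lower in *D. virilis*. Length also differed, with 31.6% of the complex and 8.69% of all peaks at 700 bp or more. Among peaks under 700 bp, 6 of 26 (23.1%) in each of these species were 2-fold or more from the strains' mean. The shares of all such peaks were 31.5% in *D. pseudoobscura* and 35.7% in *D. virilis*, against 8.41% and 11.4% of all longer peaks. The part of length in these counts was not tested. Without Canton-S, *D. pseudoobscura* was past 2-fold at 7 peaks, 5 higher and 2 lower (background 31.7%), and without FRT82 at 6, all higher (background 30.9%). On RPKM computed from the counts it was past 2-fold at 6, 4 higher and 2 lower (background 23.1%).

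Counts were tested by edgeR's quasi-likelihood method over all 19424 peaks with Benjamini-Hochberg adjustment, in a fit with the 3 species as groups. In this fit the spread comes from the 2 strains, and the single library of another species is assumed to vary like them. Between *D. pseudoobscura* and *D. melanogaster* 11 of the 38 peaks had an adjusted p under 0.05, 10 of them higher in *D. pseudoobscura* and 1 lower. The share of all peaks called was 27.5%, with 13.8% higher and 13.7% lower, so that with edgeR the total in the complex was near the background. Between *D. virilis* and *D. melanogaster* 5 peaks were called, all of them lower in *D. virilis*. Here the background was 24.7% of all peaks, with 11.9% higher and 12.9% lower. The share called lower in the complex, 13.2%, was thus near the background of lower calls. The counts depended on the tool. In *D. pseudoobscura* DESeq2 called 1 of the 38 peaks (2.63%), against 6.20% of all peaks. The limma test with a trend on log2(RPKM + 1) called 2 there (P27 and P34, 5.26%), against 15.2% of all peaks. In *D. virilis* DESeq2 called 1 (2.63%), against 5.76% of all peaks, and limma 3 (P22, P27 and P31, 7.89%), against 20.1%.

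**Figure D3:**
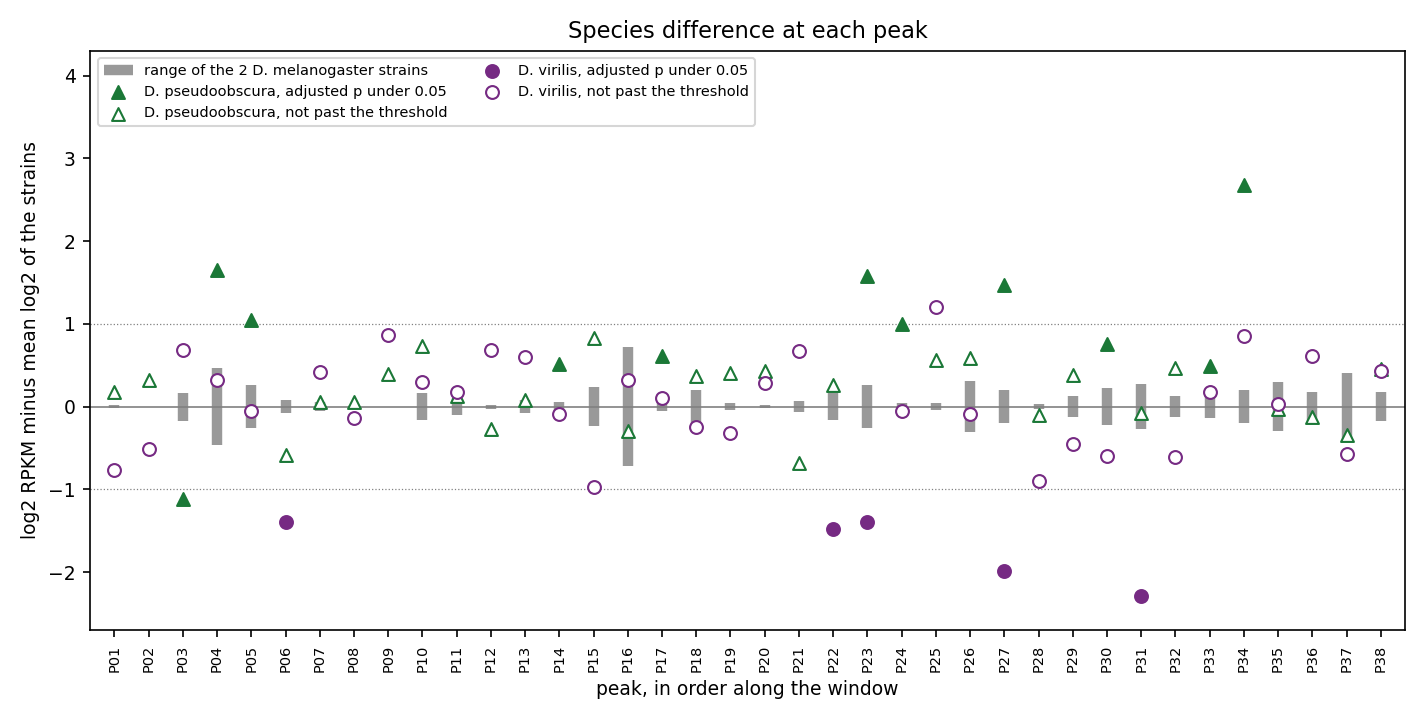
Log2 RPKM of *D. pseudoobscura* (triangles) and *D. virilis* (circles) minus the mean log2 RPKM of the *D. melanogaster* strains (y axis) for the 38 peaks in order along the window (x axis). Filled symbols have an edgeR adjusted p under 0.05, grey bars span the 2 strains, and dotted lines mark 2-fold from their mean. Filled triangles lie above 0 at 10 peaks and below at P03, and the 5 filled circles all lie below 0.

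The largest RPKM ratio to the strains was at P34 in run 3, from 21869031 to 21869338. In *D. pseudoobscura* it had 45.3 RPKM (251 reads), and in *D. virilis* 12.9 RPKM (49 reads). The strains had 6.19 RPKM from 11 reads in FRT82 and 8.17 RPKM from 47 reads in Canton-S, among the lowest values of the complex. On the deposited RPKM, *D. pseudoobscura* was 6.38 times the geometric mean of the strains, a log2 ratio of 2.67. On RPKM computed from the counts it lay at a log2 ratio of 2.34. Its log2 fold change was 2.31 with an approximate standard error of 0.45 (adjusted p = 1.02e-05 from edgeR, and from 6.91e-06 to 0.0228 over the alternatives). This was the only peak that all tools called in this comparison. Standard errors were taken from the fold change and the F statistic, and are approximate.

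P27 and P23 moved in opposite directions in the 2 species. P27, from 21859481 to 21859678 in run 3, reached 85.2 RPKM in *D. pseudoobscura* (309 reads), 7.74 RPKM in *D. virilis* (17 reads), 35.4 RPKM in FRT82 (37 reads) and 26.8 RPKM in Canton-S (73 reads). It was 2.77 times the strains in *D. pseudoobscura* (log2 fold change 1.55, standard error 0.42, edgeR adjusted p = 0.00206) and 0.25 times in *D. virilis* (log2 fold change -2.06, standard error 0.55, edgeR adjusted p = 0.00232). P23, from 21849686 to 21849912 in run 2, reached 30.5 RPKM in *D. pseudoobscura* (127 reads), 3.89 RPKM in *D. virilis* (8 reads), 12.3 RPKM in FRT82 (16 reads) and 8.58 RPKM in Canton-S (36 reads). Its edgeR adjusted p was 0.0189 for *D. pseudoobscura*, with a log2 fold change of 1.39, and 0.0156 for *D. virilis*, with a log2 fold change of -2.02. At P27 limma also made the call in each species, whereas at P23 it made neither call. DESeq2 called neither peak in either species. At 2-fold from both strains, an excess in *D. pseudoobscura* together with a deficit in *D. virilis* was seen at these 2 of 38 peaks and at 77 (0.396%) of all peaks.

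P04, from 21824676 to 21825082 in run 1, was the fourth peak past 2-fold in *D. pseudoobscura*. It had 33.5 RPKM there, 13.3 RPKM in *D. virilis*, 14.7 RPKM in FRT82 and 7.68 RPKM in Canton-S. *D. pseudoobscura* was 3.15 times the geometric mean of the strains, which themselves were nearly 2-fold apart (edgeR log2 fold change 1.46, standard error 0.43, adjusted p = 0.00483). Its neighbour P05, 60 bp away, had 47.5 RPKM in *D. pseudoobscura* with 22.04 RPKM in *D. virilis*, against 19.1 and 27.5 RPKM in FRT82 and Canton-S (edgeR adjusted p = 0.0184 for *D. pseudoobscura*). At both peaks *D. virilis* lay within the range of the strains. Neither P04 nor P05 was called by DESeq2 or by limma.

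The other 5 peaks called higher in *D. pseudoobscura* were P14, P17, P24, P30 and P33, and 4 of these were among the 12 long peaks. The share of all long peaks called in this species was not computed. P14, the longest of the complex, had 61.9 RPKM in *D. pseudoobscura* with 40.6 RPKM in *D. virilis*, against 45.0 and 41.5 RPKM in FRT82 and Canton-S. Its log2 fold change of 0.61 rested on 3003 reads in *D. pseudoobscura* and on 645 and 1428 in FRT82 and Canton-S (edgeR adjusted p = 0.0199). P24, from 21850013 to 21850805, had 44.1 RPKM in *D. pseudoobscura*, whereas *D. virilis*, FRT82 and Canton-S lay between 21.2 and 22.7 RPKM (log2 fold change 0.98, edgeR adjusted p = 0.0161).

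P17, described above, had a log2 fold change of 0.76 (edgeR adjusted p = 0.0045). P30, from 21862592 to 21862964, had 98.5 RPKM in *D. pseudoobscura* with 38.4 RPKM in *D. virilis*, against 49.96 and 67.9 RPKM in FRT82 and Canton-S (log2 fold change of *D. pseudoobscura* 0.89, edgeR adjusted p = 0.0292). P33, from 21867456 to 21868748, had 73.5, 59.2, 47.6 and 58.0 RPKM in *D. pseudoobscura*, *D. virilis*, FRT82 and Canton-S (log2 fold change of *D. pseudoobscura* 0.61, edgeR adjusted p = 0.044). At all 5 peaks *D. pseudoobscura* was the highest library. None of these calls was made by DESeq2 or by limma, and without TMM scaling P30 and P33 were not called by edgeR (adjusted p = 0.0586 and 0.0864).

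A single peak was called lower in *D. pseudoobscura*. P03, from 21824127 to 21824343, had 7.21 RPKM in *D. pseudoobscura* (21 reads) with 25.2 RPKM in *D. virilis* (70 reads), against 17.5 and 13.9 RPKM in FRT82 and Canton-S from 21 and 50 reads (edgeR log2 fold change -1.64, standard error 0.56, adjusted p = 0.0188). This peak lies 333 bp before P04, which edgeR called in the opposite direction. Neither call was made by DESeq2 or by limma, and P03 was not 2-fold below both strains.

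The 5 peaks called lower in *D. virilis* were between 197 and 513 bp long, and none of the 12 long peaks was called in that species. Of all long peaks in the table, 69.9% were called by edgeR in neither species. The share of all long peaks called in *D. virilis* alone was not computed. P31, from 21865215 to 21865472 in run 3, had 6.42 RPKM (17 reads) in *D. virilis*. *D. pseudoobscura* had 29.6 RPKM from 140 reads there, within the range of the strains, which had 37.8 RPKM in FRT82 from 52 reads and 25.9 RPKM in Canton-S from 93 reads. *D. virilis* was 0.205 times the geometric mean of the strains (edgeR log2 fold change -2.48, standard error 0.56, adjusted p = 1.99e-04, and from 2.46e-04 to 0.0196 over the alternatives). This was the only peak that all tools called in *D. virilis*.

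P22, from 21848873 to 21849386 in run 2, had 21.97 RPKM (152 reads) in *D. virilis* while *D. pseudoobscura* had 72.8 RPKM, against 68.6 RPKM in FRT82 and 54.3 RPKM in Canton-S (edgeR log2 fold change of *D. virilis* -1.23, standard error 0.35, adjusted p = 0.00413). It is 300 bp from P23, which was lower in *D. virilis* as well. P06, from 21826612 to 21827036 in run 1, had 12.1 RPKM in *D. virilis* and 21.3 RPKM in *D. pseudoobscura*, against 33.5 and 30.2 RPKM in FRT82 and Canton-S (edgeR log2 fold change of *D. virilis* -1.31, standard error 0.45, adjusted p = 0.0204). Both other species lay below both strains at P06, but only *D. virilis* was 2-fold lower. The single peak 2-fold higher in *D. virilis* was P25, from 21851020 to 21851203, with 34.6 RPKM there and 22.2 RPKM in *D. pseudoobscura*, against 15.4 and 14.6 RPKM in FRT82 and Canton-S. It was not called (edgeR adjusted p = 0.121 for *D. virilis*), and on RPKM computed from the counts it was just inside 2-fold, at a log2 ratio of 0.99.

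The levels of *D. virilis* relative to the strains were also listed by run. In run 1 it lay above both strains at 7 of 16 peaks and below both at 6, with a median log2 ratio of 0.24. Run 2 had 4 peaks above and 5 below, with a median of -0.06. In run 3 it lay above both strains at 2 of 10 peaks and below both at 6, with a median of -0.53. *D. pseudoobscura* lay above both strains at 11 of 16 peaks in run 1, 8 of 9 in run 2 and 7 of 10 in run 3, with median log2 ratios of 0.15, 0.43 and 0.48. Over all peaks of the table, *D. virilis* lay above both strains at 40.3% and below both at 41.6%. For *D. pseudoobscura* these shares were 39.4% and 40.3%. The counts of *D. virilis* in run 1 were near its shares. The runs were drawn after their values had been seen, and no test was made between them.

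Long peaks differed less between libraries than short ones. Over the 12 peaks of 700 bp or more, the median absolute log2 ratio to the strains was 0.35 in *D. pseudoobscura* and 0.21 in *D. virilis*, and between FRT82 and Canton-S it was 0.12. Over the 26 shorter peaks it was 0.51, 0.60 and 0.35 in the same order. The long peaks had a median of 333 reads in FRT82 and the shorter ones 57 reads. The same medians over all 1688 long peaks of the table were 0.35, 0.36 and 0.25, and over the 17736 shorter ones 0.64, 0.72 and 0.40. None of the 12 long peaks was past 2-fold from the strains' mean in either species, with P24 just inside at a log2 ratio of 1.00 in *D. pseudoobscura*. Of all long peaks, 8.41% were past 2-fold in *D. pseudoobscura* and 11.4% in *D. virilis*, so a count of 0 in 12 was near the background. In *D. pseudoobscura* 11 of the 12 long peaks lay above the mean level of the strains, against 49.5% of all long peaks, and in *D. virilis* 4 of the 12 did, against 54.8%.

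**Figure D4:**
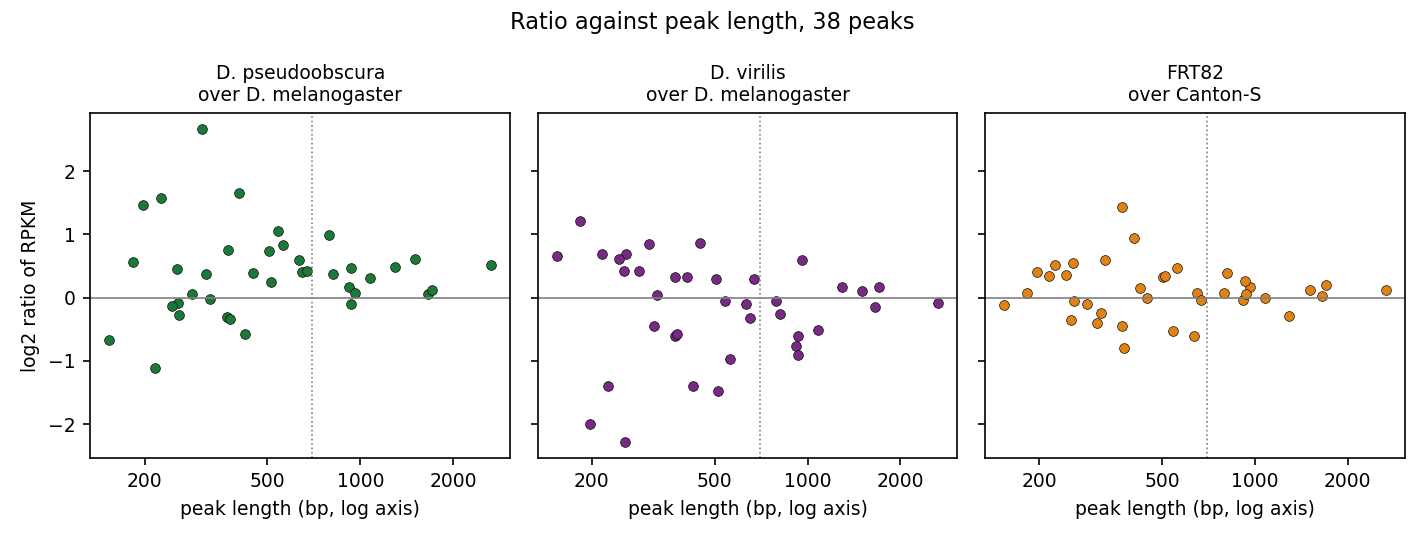
Log2 ratio of RPKM (y axis) against peak length in bp on a log axis (x axis) for the 38 peaks, in *D. pseudoobscura* over the strains' mean, *D. virilis* over the strains' mean, and FRT82 over Canton-S. The vertical dotted line marks 700 bp, and all points right of it lie within 1 log2 unit of 0.

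The strains themselves were close at most peaks. A 2-fold difference between FRT82 and Canton-S was seen at 1 of the 38 peaks, and at 9.74% of all peaks (4.94% higher in FRT82 and 4.8% lower). This peak, P16 from 21839014 to 21839385, had 29.3 RPKM in FRT82 from 57 reads and 10.8 RPKM in Canton-S from 71 reads, and on RPKM computed from the counts no peak was 2-fold apart. *D. pseudoobscura* had 14.5 RPKM and *D. virilis* 22.3 RPKM there, both within the range of the strains. The largest difference in the other direction was at P37, from 21877624 to 21878002, with 36.7 RPKM in FRT82 and 64.1 RPKM in Canton-S. The median absolute log2 ratio of the strains was 0.27 over the complex and 0.38 over all peaks.

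In total, 24 of the 38 peaks (63.2%) were called by edgeR in neither species, against 55.9% of all peaks. Their log2 ratios lay between -0.68 and 0.83 for *D. pseudoobscura* and between -0.97 and 1.21 for *D. virilis*, and 8 of the 12 long peaks (66.7%) were among them, against 69.9% of all long peaks. P08, from 21827705 to 21829360, was the most even of these, with 74.4 RPKM in *D. pseudoobscura*, 65.0 RPKM in *D. virilis*, 72.6 RPKM in FRT82 and 71.0 RPKM in Canton-S, from at least 630 reads in every library. A p that misses the threshold does not show equal openness at the other peaks, since several rest on few reads in FRT82. At P21, for example, *D. pseudoobscura* had 8.13 RPKM and *D. virilis* 20.6 RPKM, against 12.5 and 13.6 RPKM in FRT82 and Canton-S, from 18, 43, 11 and 35 reads.

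The other species were also set against each other, in a comparison chosen after the data were seen. Each side is 1 library, and the spread comes only from the *D. melanogaster* strains, which are not part of the comparison. The calls and adjusted p below therefore describe the difference and do not test it. *D. pseudoobscura* differed from *D. virilis* at 15 of the 38 peaks, 13 of them higher and 2 lower (edgeR adjusted p under 0.05). The background was 32.7% of all peaks, with 16.7% higher and 16% lower. P15, from 21837993 to 21838554, was called in neither species against the strains but differed here (log2 fold change 1.76, edgeR adjusted p = 6.49e-04). It had 45.6 RPKM in *D. pseudoobscura*, 13.1 RPKM in *D. virilis*, 30.2 RPKM in FRT82 and 21.7 RPKM in Canton-S, with the strains between the species. P02, from 21822454 to 21823532, had 73.0 RPKM in *D. pseudoobscura* and 41.0 in *D. virilis*, and 58.6 RPKM in both FRT82 and Canton-S (log2 fold change 0.98, edgeR adjusted p = 0.00659). P32, from 21865560 to 21866492, had 44.0 RPKM in *D. pseudoobscura* and 20.9 in *D. virilis*, and 34.9 and 29.1 RPKM in FRT82 and Canton-S (log2 fold change 0.92, edgeR adjusted p = 0.0379). At both peaks the strains again lay between the species. The 2 lower peaks were P03 and P21. DESeq2 and limma each called 6 of the 38 peaks (15.8%), all higher in *D. pseudoobscura*, against 8.79% and 18.1% of all peaks.

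In the comparison with 2 libraries on each side, *D. pseudoobscura* and *D. virilis* were set against FRT82 and Canton-S. edgeR's quasi-likelihood test called 0 of the 38 peaks and 0 of all peaks (0% of the table) at an adjusted p under 0.05. At an unadjusted p under 0.05 it found 1 peak of the complex and 1961 (10.1%) of all peaks, 4.55% higher and 5.55% lower. The peak was P34, higher in both other species (log2 fold change 1.73, standard error 0.71, unadjusted p = 0.0292, adjusted p = 0.444). DESeq2 and limma called 0 peaks of the complex as well, with 162 and 272 of all peaks. The spread in this test includes that between both other species. The coefficient of variation between libraries was 42.9% here, against 20.1% in the fit with the species as groups. Without the *D. virilis* library this comparison becomes that of *D. pseudoobscura* alone with the strains. The median log2 fold change was then 0.44 over the complex and -0.03 over all peaks. Without *D. pseudoobscura* it becomes that of *D. virilis* alone with the strains, with medians of 0.04 and -0.03. Neither is a check of the comparison with 2 libraries on each side.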

How the data were processed

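FAIRE-Seq libraries were made from eye-antennal discs fixed with formaldehyde (4%, 10 min). The authors mapped reads with Bowtie2 to FlyBase release 5 (*D. melanogaster*), 2 (*D. pseudoobscura*) and 1 (*D. virilis*), moved the alignments of the other species with liftOver (minMatch 0.1), which can lose their reads, called peaks per library with F-Seq and gathered them. The deposited counts are raw HTSeq reads per peak, without strand. Regions with no reads in a species were left out, so absent regions cannot be seen. The deposited RPKM were normalized within and between libraries by the authors, with an unnamed tool, and the peaks passed 1 RPKM and 150 bp. Positions are as deposited.

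Libraries were grouped by species from their titles. Counts were fitted over all peaks with edgeR 4.0.16 (TMM, no filter) in 3 groups with 1 residual degree of freedom, and as 2 libraries against 2. Alternatives were DESeq2 1.42.0, limma 3.58.1 on log2(RPKM + 1), no TMM, at least 10 counts, and leaving out libraries. For RPKM ratios they were RPKM from the counts, a pseudocount of 1, and centring on 3R. Tests were tried on simulated data. The members, gene list and tests were chosen with earlier results of these data known. Peaks given in full are the 5 highest by mean RPKM, those called or 2-fold apart, and the edges; P08, P21, P37, the contrast between the other species, the runs and the limit of 700 bp were chosen after the values were seen. The study's Ornstein-Uhlenbeck test was not refitted. No sequence was analysed here. Python 3.11.15 and R 4.3.3 were used.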

Additional observations from a re-analysis of the deposited data

Results flagged for a closer look

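At P27 and P23 the 2 other species moved in opposite directions from both strains by 2-fold or more. P27 had 85.2 RPKM in *D. pseudoobscura*, 7.74 RPKM in *D. virilis*, and 35.4 and 26.8 RPKM in FRT82 and Canton-S. P23 had 30.5 RPKM in *D. pseudoobscura*, 3.89 RPKM in *D. virilis*, and 12.3 and 8.58 RPKM in FRT82 and Canton-S. The log2 fold change of *D. pseudoobscura* over *D. virilis* was 3.61 at P27 (standard error 0.58) and 3.40 at P23 (standard error 0.68) in the edgeR fit with the 3 species as groups. This contrast was added after the data were seen and the peaks were picked for their opposite directions, so these values describe the difference and do not test it. They rest on 1 library of each species. P23 has 8 reads in *D. virilis*. In the same contrast 15 of the 38 peaks were called (background 32.7% of all peaks), 13 higher and 2 lower in *D. pseudoobscura*, against 16.7% higher and 16% lower over all peaks.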

How the results depend on the processing

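No call at a single peak changed direction under any alternative that gave a value. Between *D. pseudoobscura* and *D. melanogaster* the calls in the complex numbered 1 with DESeq2 and 2 with limma instead of 11, and over all peaks there were 1205 and 2944 instead of 5349. Between *D. virilis* and *D. melanogaster* they numbered 1 and 3 instead of 5, with 1118 and 3913 over all peaks instead of 4799. The comparison of *D. pseudoobscura* with *D. virilis*, added after the data were seen, gave 6 calls in the complex with either tool instead of 15, and 1707 and 3524 over all peaks instead of 6349. With 2 libraries against 2, all peaks together held 162 calls with DESeq2 and 272 with limma instead of 0, and between 6 and 5385 when a library was left out, with 0 to 11 in the complex. The 2-fold rule in *D. pseudoobscura* gave 6 to 7 peaks instead of 4 when a strain was left out, with a background of 30.9% to 31.7% instead of 20.9%. On RPKM from the counts it gave 6, of which 2 were lower, no peak was 2-fold higher in *D. virilis*, and the strains differed 2-fold at 0 peaks instead of 1. There the log2 ratio of *D. pseudoobscura* at P34 was 2.34 instead of 2.67. That of *D. virilis* was -1.23 instead of -1.47 at P22 and -2.05 instead of -1.40 at P23. Without TMM the median log2 fold change of all peaks between *D. pseudoobscura* and *D. melanogaster* was -0.12 instead of -0.03, and that of the complex 0.34 instead of 0.44. The causes of these changes were not tested. Leaving out a strain leaves the fit with 3 groups no residual degree of freedom, so it was not run. No paired analysis was possible because the other species have 1 library each. Depth limits P21, P23, P25 and P34, with 11 to 16 reads in FRT82.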
